A study of Mus musculus with 22 samples.

Results

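The syndecans are a family of 4 mouse genes, Sdc1, Sdc2, Sdc3 and Sdc4, of 15964 genes named on the arrays, and were followed here across normal mammary glands and 2 kinds of mammary tumour. The family was selected on the signal of Sdc4, which was higher in tumours than in normal glands, by an amount that differed widely between its probe sets. Its RNA was read by every probe set on the 3 chip types whose only gene symbol is one of the 4 names. This gave 9 of the 36701 probe sets, of which 7 passed the filter on low signal, against 28138 overall. Sdc4 had 3 probe sets and the other members 2 each. All 4 genes are accounted for, with Sdc1 and Sdc2 each read by 1 probe set that passed and 1 that did not.

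Total RNA was labelled with biotin and hybridised to Affymetrix MG-U74v2 arrays, on which a probe set is a group of short probes that reads a transcript. Her2/Neu, the transgene that induced the tumours, codes for a receptor tyrosine kinase of the ErbB family. One tumour group was labelled PEA3-null and the other wild type for PEA3. PEA3 is the protein product of Etv4, an ETS family transcription factor that binds DNA with a GGAA core. Normal glands came from FVB mice. No strain or age was given for the tumour-bearing mice, no age for the normal mice, and the promoter of the transgene is not given in the sources used here. Chips A and B held 2 RNA samples labelled PEA3-null, 3 wild-type tumour samples and 3 normal samples, and chip C held 1, 2 and 3. The labels describe the tumour RNA as pooled and title the normal samples as pools. A group has a single sample identifier and the series counts 3 samples with 22 replicates, so the replicates may be repeat preparations and every p-value measures only the spread between these preparations.

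Syndecans are transmembrane proteoglycans that carry heparan sulfate chains on the part outside the cell. The chains bind growth factors, chemokines and matrix proteins and present them to signalling receptors, and the short cytoplasmic tail binds PDZ proteins and the actin cytoskeleton. Sdc1 is the main syndecan of epithelial cells and of plasma cells, Sdc2 is typical of fibroblasts and endothelium, Sdc3 of the nervous system and muscle, and Sdc4 is widespread and sits in focal adhesions, where it works with integrins. Extracellular proteases shed the outer part with its chains.

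The sequence just before the transcription start is shown because the compared tumours were labelled as differing in a factor that binds GGAA. RefSeq promoter entries of build GRCm38.p6 were found for 3 of the 4 genes. The 250 bases before each start are printed 5′ to 3′ on the strand of the gene, and capitals mark GGAA or its complement TTCC.
Sdc1 promoter, chr12:8771146-8771395, plus strand: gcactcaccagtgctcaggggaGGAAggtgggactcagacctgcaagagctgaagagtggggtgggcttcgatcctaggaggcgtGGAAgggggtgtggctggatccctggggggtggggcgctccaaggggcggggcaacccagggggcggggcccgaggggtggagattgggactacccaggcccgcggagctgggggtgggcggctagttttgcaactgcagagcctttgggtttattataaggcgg
Sdc3 promoter, chr4:130792287-130792536, plus strand: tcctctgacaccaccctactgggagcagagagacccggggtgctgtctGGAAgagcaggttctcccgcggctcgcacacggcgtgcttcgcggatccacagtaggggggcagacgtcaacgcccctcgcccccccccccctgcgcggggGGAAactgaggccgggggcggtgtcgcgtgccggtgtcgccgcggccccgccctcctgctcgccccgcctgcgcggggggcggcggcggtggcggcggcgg
Sdc4 promoter, chr2:164443189-164443438, minus strand: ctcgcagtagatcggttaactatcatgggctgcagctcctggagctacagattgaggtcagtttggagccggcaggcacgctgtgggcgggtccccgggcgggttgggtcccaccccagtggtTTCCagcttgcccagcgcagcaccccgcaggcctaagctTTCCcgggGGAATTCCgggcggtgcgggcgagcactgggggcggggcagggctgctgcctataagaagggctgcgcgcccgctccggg

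The Sdc4 window held 4 GGAA cores, at 127, 88, 80 and 76 bases before the start, the last 2 as the run GGAATTCC in which the cores overlap no base. Sdc1 held 2, at 228 and 165 bases, and Sdc3 held 2, at 202 and 101 bases. Both strands were searched, 93.45% of the 32851 RefSeq windows of the same length held at least 1 core, and the median window held 3. The longer PEA3 motif AGGAAG, which contains a GGAA core, was present once, in Sdc1 at 229 bases, and 29.48% of all windows held it. The GC box GGGCGG was found 3 times in Sdc1, 3 times in Sdc3 and 4 times in Sdc4, against 32.74% of all windows with at least 1. The letters TATAA stood at 29 bases before the start of Sdc4, occurred as 2 overlapping matches at 11 and 10 bases in Sdc1, were not found in Sdc3, and occurred in 22.78% of all windows. The G and C content was 66% for Sdc1, 76.4% for Sdc3 and 68% for Sdc4, with a median of 52.4% over all windows. These are matches of letters, and no measurement here reads binding to them.

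Sdc4 had more signal in the tumours than in the normal glands at each of its probe sets, and much more at 109816_s_at. This family was proposed for that difference, so the values against normal glands are given as a description, with no p-value. All signals are MAS5 intensities scaled so that each array has a trimmed mean of 500, and log2 values were taken after adding 32. Probe set 109816_s_at on chip B read 177, 113 and 50.3 in normal glands 1 to 3. In the wild-type tumours it read 3091, 5601 and 5092, and in the tumours labelled PEA3-null 4663 and 4166. Every tumour sample stood far above every normal sample, and the signals of the 2 tumour groups overlapped. The group means were 113 ± 63.1 (SD, n = 3) for normal glands, 4595 ± 1327 (SD, n = 3) for wild-type tumours and 4415 ± 352 (SD, n = 2) for tumours labelled PEA3-null. Because 2 of the 3 normal signals were below the 150 used in the filter, the fold is given as a bound, with each normal array set to the higher of 150 and its own signal. On this basis the signal of 109816_s_at was at least 28.1-fold higher in wild-type tumours and at least 27.8-fold higher in tumours labelled PEA3-null. The fitted log2 differences, whose size depends on the added 32, were 5.05 (SE 0.33) and 5.03 (SE 0.37). Normal gland 3 had the lowest signal. Without normal glands 1 and 2, left out after the data were seen, it alone remained, and the log2 differences were 5.77 and 5.75. On chip B the wash of no normal gland was recorded as aborted. The GAPDH 3′ to 5′ signal ratio there, a measure of RNA integrity, was 5.68 for normal gland 3, against 2.67 and 2.59 for normal glands 1 and 2.

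The other Sdc4 probe sets were also brighter in tumours, by less. Probe set 98590_at on chip A read 3227, 2668 and 2927 in normal glands, 6955, 5798 and 6920 in wild-type tumours, and 5234 and 7019 in the tumours labelled PEA3-null. No tumour sample overlapped a normal one. The log2 difference from normal glands was 1.15 (SE 0.15), or 2.22-fold, in wild-type tumours and 1.04 (SE 0.17), or 2.06-fold, in tumours labelled PEA3-null. Probe set 167673_f_at on chip C read 67.0, 217 and 52.7 in normal glands, 342 and 344 in wild-type tumours, and 260 in the single sample labelled PEA3-null. The tumour arrays were above all 3 normal arrays, and the fitted log2 difference between wild-type tumours and normal glands was 1.55 (SE 0.67). Here too 2 of the 3 normal signals were below 150, and the bound, set in the same way, was at least 2.02-fold. In wild-type tumours the 3 probe sets of Sdc4 were all above normal glands, by 2.22-fold at 98590_at and at least 28.1-fold at 109816_s_at. The suffixes _s_at and _f_at mark probe sets that can share probes with other transcripts, so 109816_s_at and 167673_f_at are uncertain in this respect, and 98590_at carries no such mark. The same limit holds for 161370_f_at of Sdc1 and 162215_f_at of Sdc2. Probe positions were not used here, and whether the probe sets read different transcript forms was not tested.

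**Figure D1:**
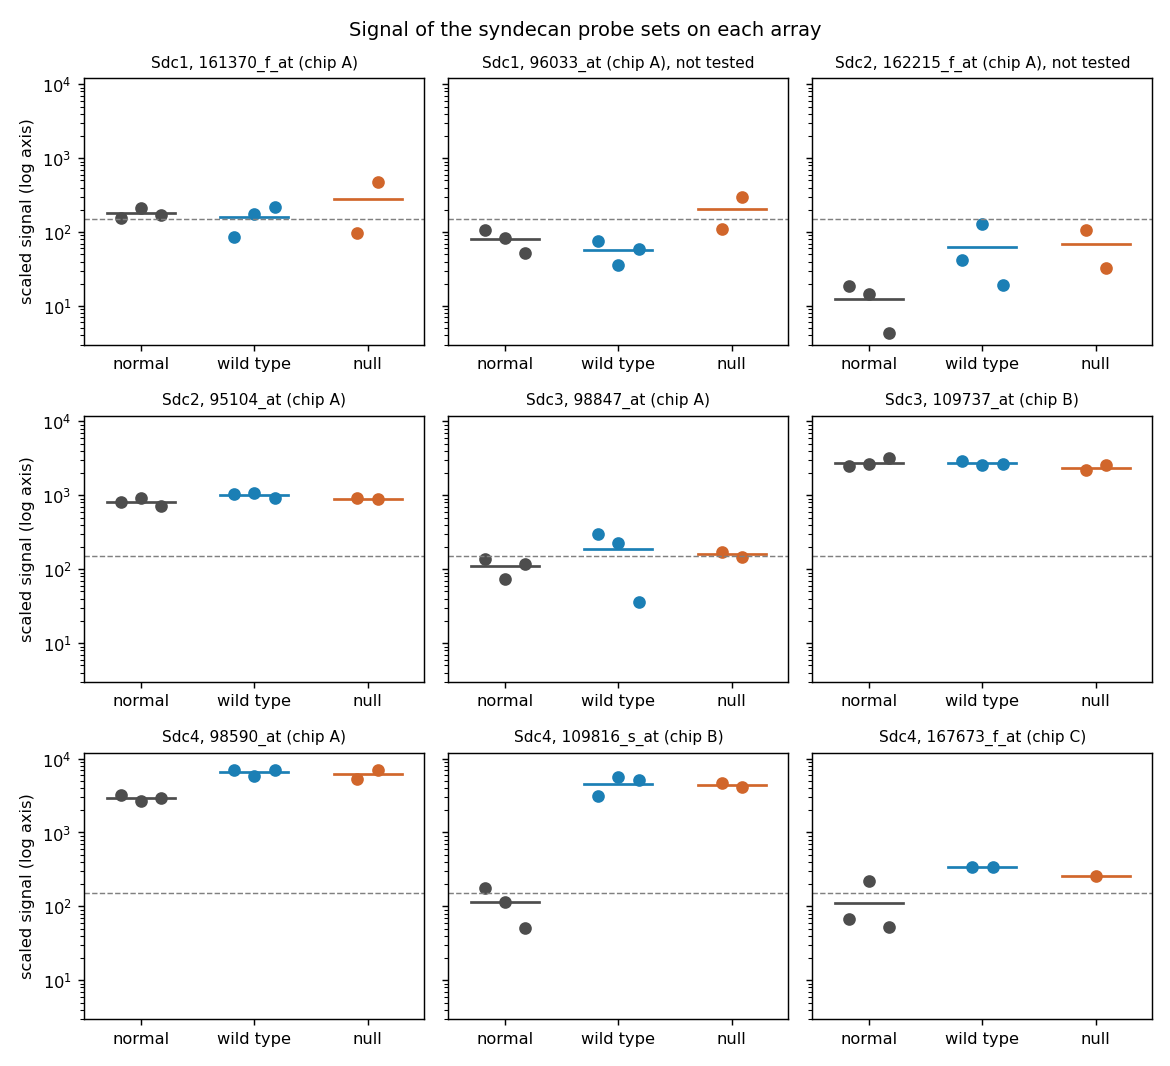
Scaled signal (log axis) of the 9 syndecan probe sets on each array, by group; points are arrays, horizontal lines are group means and the dashed line is the signal of 150 used in the filter. Sdc4 at 109816_s_at reads 50.3 to 177 on the normal arrays and 3091 to 5601 on the tumour arrays, whereas Sdc2 at 95104_at reads 717 to 1089 and Sdc3 at 109737_at reads 2175 to 3163 over all 8 arrays.

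Sdc1, the epithelial member, was dim at both of its probe sets, and the only one tested carries the suffix _f_at. Whether the low signal comes from the probes or from the gene was not tested. Probe set 161370_f_at on chip A read 156, 212 and 172 in normal glands, 85.8, 178 and 220 in wild-type tumours, and 96.5 and 471 in the tumours labelled PEA3-null. The highest and one of the lowest signals both came from the tumours labelled PEA3-null, and all groups overlapped. The second probe set, 96033_at, did not pass the filter, which asked for 150 or more on 2 or more arrays. It read 107, 84.4 and 52.7 in normal glands, 75.7, 35.9 and 58.4 in wild-type tumours, and 111 and 297 in the tumours labelled PEA3-null. Both Sdc1 probe sets were highest in sample 2 labelled PEA3-null, which was also the only array on which 96033_at reached 150. Against normal glands, the log2 difference of 161370_f_at was -0.20 (SE 0.49) in wild-type tumours and 0.27 (SE 0.55) in tumours labelled PEA3-null. The latter became 1.25 without sample 1 labelled PEA3-null and -0.71 without sample 2. The summed signal of 4 plasma cell markers, which belong to another cell type that carries Sdc1, was 821 and 1271 in the tumours labelled PEA3-null, 513, 974 and 857 in wild-type tumours, and 710, 626 and 1246 in normal glands. Of these markers Irf4 stayed below 150 in all tumours. Their part in the Sdc1 values was not tested.

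Sdc2, which is typical of connective tissue, had fitted differences from normal glands of 1.24-fold in wild-type tumours and 1.12-fold in tumours labelled PEA3-null at its bright probe set. Probe set 95104_at on chip A read 805, 908 and 717 in normal glands, 1033, 1089 and 915 in wild-type tumours, and 913 and 894 in the tumours labelled PEA3-null. The wild-type tumours lay just above the normal glands without overlap, with a log2 difference of 0.31 (SE 0.16), or 1.24-fold, and the tumours labelled PEA3-null overlapped the normal glands, with a difference of 0.16 (SE 0.18). Probe set 162215_f_at did not reach 150 on any array. Its signals were 18.7, 14.7 and 4.34 in normal glands, 42.2, 128 and 19.0 in wild-type tumours, and 107 and 33.2 in the tumours labelled PEA3-null. The normal signals were the lowest of this probe set, at a level where no fold is given.

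Sdc3, known from nerve and muscle, was read by a bright probe set on chip B and a dim one on chip A. Probe set 109737_at on chip B read 2506, 2621 and 3163 in normal glands, 2946, 2580 and 2684 in wild-type tumours, and 2175 and 2567 in the tumours labelled PEA3-null. The signals of the normal glands overlapped those of both tumour groups. The log2 difference from normal glands was -0.01 (SE 0.17) in wild-type tumours and -0.22 (SE 0.19) in tumours labelled PEA3-null. Probe set 98847_at on chip A stood just inside the filter, with 3 of its 8 arrays at 150 or more, and read 139, 73.3 and 117 in normal glands, 300, 227 and 35.7 in wild-type tumours, and 172 and 147 in the tumours labelled PEA3-null. Wild-type tumours gave both its highest and its lowest signal, both samples labelled PEA3-null lay just above the normal glands, and the log2 differences from normal glands were 0.37 (SE 0.55) and 0.46 (SE 0.62). The probe sets just outside the filter were 96033_at of Sdc1, with 1 of 8 arrays at 150 or more, and 162215_f_at of Sdc2, with none.

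The probe sets differed from each other in how well their replicates held together, also within Sdc3 and within Sdc4. The spread between replicates within groups, pooled on the log2 scale, was smallest for 95104_at of Sdc2 (SD 0.13), 109737_at of Sdc3 (SD 0.15) and 98590_at of Sdc4 (SD 0.18). It was 0.52 for 109816_s_at of Sdc4, 0.73 for 161370_f_at of Sdc1 and 0.82 for 98847_at of Sdc3.

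For the count of members against the background, the choice of the family fixed what is seen at Sdc4. At an adjusted p of 0.05 in limma, 2 of 7 tested probe sets were called between wild-type tumours and normal glands, beside 20.9% of all probe sets tested. Both were of Sdc4 and both were higher, where 10.5% of all probe sets were called higher. The wild-type tumours lay above the normal glands without overlap at 4 of 7, the 3 probe sets of Sdc4 and 95104_at of Sdc2, beside 21.8% of all. Between tumours labelled PEA3-null and normal glands 2 of 6 were called, the same probe sets of Sdc4, beside 24.7% of all, with 12.3% called higher. Here 3 of 6 lay above the normal glands without overlap, beside 28.7% of all. The median log2 difference of the tested members was 0.37 in the first comparison and 0.36 in the second, beside 0.04 and 0.08 over all probe sets. Since these contrasts chose the family, nothing is read from these counts. Both comparisons share the normal arrays, and their values stand side by side for that reason.

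**Figure D2:**
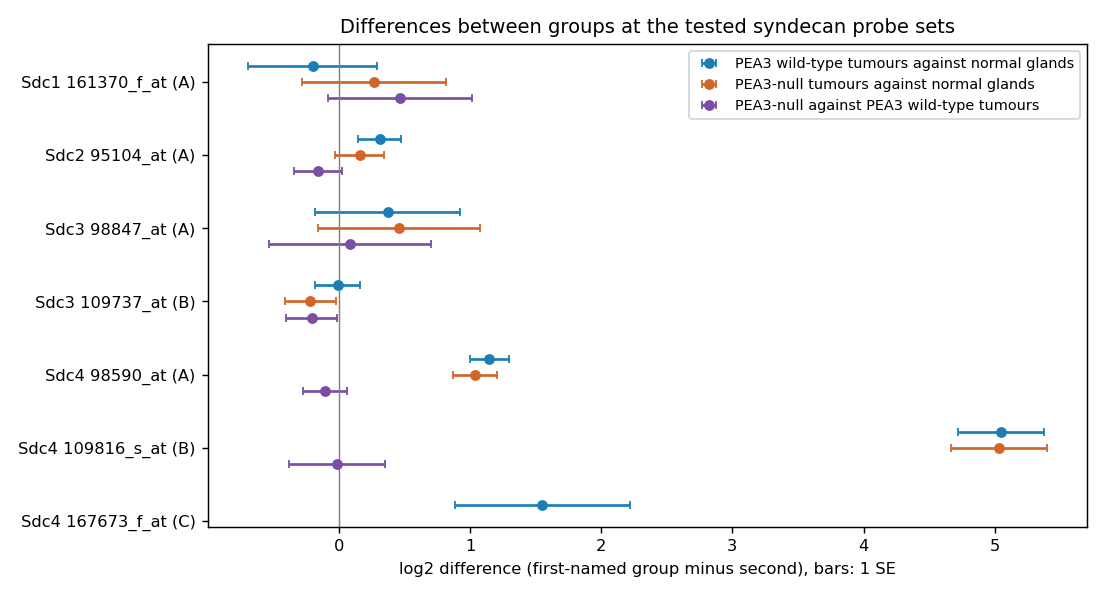
Log2 difference between groups at the 7 tested syndecan probe sets; points are limma estimates from log2(scaled signal + 32), bars are 1 SE, and colours are the 3 comparisons, with chip C shown for wild-type tumours against normal glands only. Sdc4 at 109816_s_at lies at 5.05 and 5.03 against normal glands and at -0.01 between the tumour groups.

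The comparison named in the title of the series, tumours with and without PEA3, asks whether loss of the factor changed the RNA of these tumours. It did not choose the family, although it shares the tumour arrays. None of the 6 syndecan probe sets tested on chips A and B passed the test between the tumour groups (limma, 0 of 6 at an adjusted p of 0.05 and 0 of 6 at an unadjusted p of 0.05), beside 0.193% of all 19214 probe sets, or 37. Without adjustment 10.5% of all probe sets had a p under 0.05. The median log2 difference of the members was -0.06, beside 0.01 over all probe sets.

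For Sdc4, the tumours labelled PEA3-null differed from the wild-type tumours by -0.01 at 109816_s_at (SE 0.37, 95% interval -0.81 to 0.78, limma adjusted p = 0.995). At 98590_at the log2 difference was -0.11 (SE 0.17, 95% interval -0.47 to 0.26, limma adjusted p = 0.861). These intervals leave room for differences of up to 0.81 on the log2 scale at the first probe set and 0.47 at the second. On chip C the single array labelled PEA3-null gave 260 at 167673_f_at, below the wild-type 342 and 344, and this difference was not tested.

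On chip B the arrays labelled PEA3-null shared neither scan day nor chip lot with the wild-type arrays, and on chip C no scan day, so at the probe sets of those chips genotype and scan day cannot be told apart. On chip A the 5 tumour arrays had 1 scan day. Sdc3 at 109737_at, on chip B, read less in both samples labelled PEA3-null than in any wild-type tumour, with a log2 difference of -0.21 that did not pass the test (SE 0.19, 95% interval -0.62 to 0.21, limma adjusted p = 0.741). Sdc2 at 95104_at had the same order, with a log2 difference of -0.16 (SE 0.18, 95% interval -0.56 to 0.25, limma adjusted p = 0.816). Such an order, with both samples labelled PEA3-null below all wild-type samples, was found at 11.6% of all probe sets. Sdc1 at 161370_f_at gave 0.47 with a wide interval (SE 0.55, -0.74 to 1.67, limma adjusted p = 0.814), and its direction turned with 1 sample, from 1.45 without sample 1 labelled PEA3-null to -0.52 without sample 2. Sdc3 at 98847_at gave 0.08 (SE 0.62, 95% interval -1.26 to 1.43, limma adjusted p = 0.977). Etv4 itself did not separate the tumour groups: 92979_at read 507 and 273 there, 415, 356 and 357 in wild-type tumours, and 115, 177 and 152 in normal glands. The second Etv4 probe set, 161842_r_at, read 465 and 725, then 917, 363 and 944, then 934, 612 and 832 in the same order of groups. The signals of the tumour groups overlapped at both. Whether either lies in the deleted part of the gene is not given in the sources used here, so the genotype rests on the labels, also for every direction above.

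Some facts of the whole series bear on the difference between gland and tumour. The normal glands carried much more RNA of other cell types: the summed signal of 5 skeletal muscle markers was 140165 to 143940 in normal glands, 474 to 585 in wild-type tumours and 462 to 2672 in tumours labelled PEA3-null. For 6 adipocyte markers it was 51748 to 55208, 1467 to 2064 and 2172 to 2457, and for 7 fibroblast markers 39448 to 41253, 4089 to 5900 and 3796 to 4802. The summed signal of 9 luminal epithelial markers ran the other way, from 7274 to 9083 in normal glands to 35235 to 39906 and 38264 to 42528 in the tumours. Of the luminal markers, 6 rose and 1 fell between normal glands and wild-type tumours (limma adjusted p of 0.05). The one that fell was Krt19, with a log2 difference of -5.43, while Krt8 rose by 2.67 and Cdh1 was at 0.57 (adjusted p = 0.0501). Of the 5 muscle and 6 adipocyte markers all fell, and of the 7 fibroblast markers 6 did. The muscle marker Ckm and the endothelial markers Tek and Vwf were below 150 in all tumours. The labels state sorting for Sca-1 in every group, and no probe set had Ly6a, which encodes Sca-1, as its only symbol. In bulk RNA, fewer cells of a type and less RNA per cell cannot be told apart. The part of this change of cell types in the syndecan values was not tested.

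No scan day held both tumour and normal arrays, so tissue and scan day cannot be told apart. The GAPDH 3′ to 5′ signal ratio, a measure of RNA integrity, was 0.910 to 1.25 on tumour arrays and 2.58 to 6.08 on normal ones. On each chip it was highest for normal gland 3. The same ratio for actin was 1.14 to 1.66 on tumour arrays and 1.28 to 2.14 on normal ones, so these ranges overlapped. The part of these ratios in the differences was not tested. The number of probe sets with a signal of 150 or more ran from 6891 to 8415 per array, and the ranges of tumour and normal arrays overlapped. On chip C the Erbb2 probe set read 1782, 1922 and 1858 in normal glands, 3496 and 4086 in wild-type tumours and 4764 in the tumour labelled PEA3-null. On chip A the wash of normal glands 1 and 2 was recorded as aborted.

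**Figure D3:**
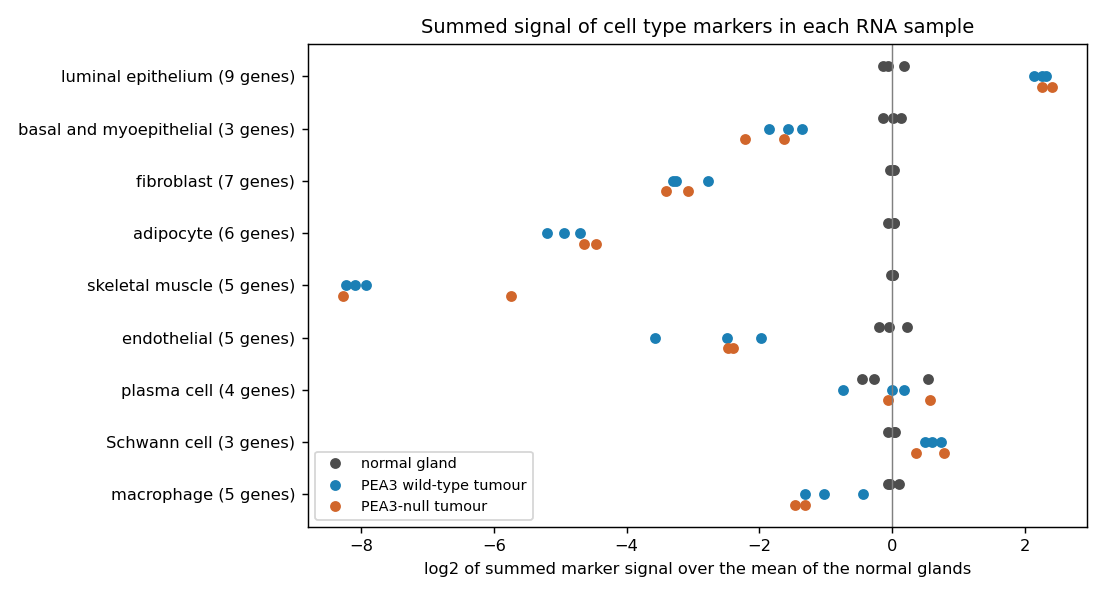
Summed scaled signal of the marker genes of 9 cell types in each of the 8 RNA samples, as log2 over the mean of the normal glands, with 1 point per sample coloured by group. Luminal epithelial markers lie above the normal glands in all tumours, and fibroblast, adipocyte, skeletal muscle and endothelial markers lie below them.

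The genes listed around the syndecans changed in both directions between gland and tumour. The lists cover chain synthesis, chain remodelling and shedding, other heparan sulfate proteoglycans, cytoplasmic partners, and ligands and receptors that bind heparan sulfate. Of the 54 such genes measured, 8 rose and 11 fell in wild-type tumours against normal glands, beside 26.8% of all 13883 genes called, 12.9% higher and 13.9% lower. In tumours labelled PEA3-null 6 of 51 rose and 13 fell, beside 28.2% of 11743 genes, 13.2% higher and 15.0% lower. The same normal arrays serve both comparisons. The median log2 difference over all genes was -0.00 and 0.02. Each gene was represented by its brightest tested probe set on average, so a gene may be read by another probe set where chip C entered, and disagreement among the probe sets of a named gene is stated. Without normal glands 1 and 2, left out after the data were seen, 8 and 7 of these genes passed in the 2 comparisons.

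Of the enzymes that assemble the chains, 5 of 16 measured rose and 1 fell in wild-type tumours, with a median log2 difference of 0.31, and 4 of 15 rose and 1 fell in tumours labelled PEA3-null, with a median of 0.26. The largest fitted rise was of Hs3st1, a 3-O-sulfotransferase that makes the antithrombin-binding form of heparan sulfate. Its signal was 59.7 ± 46.0 (SD, n = 3) for normal glands, 448 ± 141 (SD, n = 3) for wild-type tumours and 774 ± 23.6 (SD, n = 2) for tumours labelled PEA3-null. The log2 differences from normal glands were 2.46 (limma adjusted p = 0.000587) and 3.25 (limma adjusted p = 0.000188). All normal signals of Hs3st1, 22.7 to 111, were below the 150 used in the filter. The size of its rise therefore depends on the constant added before log2. Hs3st3b1, another 3-O-sulfotransferase, rose by 1.81 and 2.29 (limma adjusted p = 0.000623 and 0.000248). B3gat3, which completes the linker to which the chain is attached, rose by 1.16 and 1.42 (limma adjusted p = 0.0132 and 0.0073), though a second probe set, 164595_at, gave -1.42 and -0.92 without passing. Extl3, which starts the heparan sulfate chain, fell by 2.34 in wild-type tumours (limma adjusted p = 0.00532), and its difference in tumours labelled PEA3-null was -1.54 (limma adjusted p = 0.0642). Ext2, which encodes part of the polymerase and was named after its values were seen, did not pass in either comparison, at -0.45 and -0.07.

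Of the genes that trim chains or shed syndecans, 0 of 8 rose and 2 fell in wild-type tumours, and 0 of 8 rose and 4 fell in tumours labelled PEA3-null, with median log2 differences of -0.68 and -1.13. The largest fall was of Timp3, which does not shed but inhibits the shedding metalloproteases. Its signal went from 3671 ± 331 (SD, n = 3) in normal glands to 240 ± 112 (SD, n = 3) and 293 ± 50.9 (SD, n = 2), log2 differences of -3.87 and -3.51 (limma adjusted p = 3.36e-06 and 1.88e-05). Mmp14, a membrane metalloprotease that cleaves syndecans, fell, with log2 differences of -1.10 and -1.64 (limma adjusted p = 0.00288 and 0.000396). Sulf1, which removes 6-O-sulfate from finished chains, was at -1.80 in wild-type tumours (limma adjusted p = 0.0573) and fell by 2.61 in tumours labelled PEA3-null (limma adjusted p = 0.0145). Its second probe set, 116019_at, passed in both, with log2 differences of -2.10 and -2.70 (limma adjusted p = 0.00824 and 0.00321). Hpse, the heparanase that cuts the chains, fell by 1.89 in tumours labelled PEA3-null (limma adjusted p = 0.0288) at 1 probe set, whereas 164470_r_at gave 0.51 without passing. Tumours labelled PEA3-null read 53.7 to 73.9 for Sulf1 at 113914_at and 63.9 to 71.9 for Hpse at 112658_at. These signals lie below 150, so the sizes of these falls depend on the constant added before log2. The sheddases Adam10 and Adam17, named after their values were seen, did not pass in wild-type tumours, at -0.16 and 0.48.

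Of the other heparan sulfate proteoglycans, 1 of 9 rose and 3 fell in wild-type tumours (median -0.67), and 0 of 8 rose and 3 fell in tumours labelled PEA3-null (median -0.40). Tgfbr3, or betaglycan, a coreceptor for transforming growth factor beta that carries such chains, had a signal of 11259 ± 405 (SD, n = 3) for normal glands, 1209 ± 141 (SD, n = 3) for wild-type tumours and 1452 ± 492 (SD, n = 2) for tumours labelled PEA3-null. Its log2 differences were -3.19 and -2.97 (limma adjusted p = 1.60e-07 and 9.11e-07). Gpc6, a glypican held on the membrane by a lipid anchor, fell. Its log2 differences were -2.30 and -2.59 (limma adjusted p = 0.0167 and 0.0147). It read 182, 21.0 and 57.7 in wild-type tumours, and 45.8 and 55.7 in the tumours labelled PEA3-null. All but the first of these lie below 150, so the size of this fall depends on the constant added before log2. Col18a1, a basement membrane collagen with heparan sulfate, fell, with log2 differences of -2.35 and -1.31 (limma adjusted p = 0.000112 and 0.0112), while its probe set 101880_at had the opposite sign without passing. Gpc1 rose by 1.24 in wild-type tumours at a chip C probe set (limma adjusted p = 0.00124), whereas 104614_at on chip A was at -0.51 and -0.63 without passing. On chip B, 109065_r_at gave 0.03 and 0.43 and 109996_at gave 0.09 and 0.20, also without passing. At the chip C probe set of Gpc1 the single array labelled PEA3-null read 6299, beside means of 4800 in normal glands and 11432 in wild-type tumours.

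Of the 10 proteins that bind the cytoplasmic tail or act just below it, 2 rose and 0 fell in each comparison, with medians of 0.10 and 0.28. Gipc1, a PDZ protein that binds the tail of Sdc4, rose by 1.74 and 1.62 at 93732_f_at (limma adjusted p = 1.68e-05 and 7.47e-05). At its other probe set, 93733_r_at, it rose by 2.64 and 1.77 (limma adjusted p = 0.002 and 0.0323). Ezr, or ezrin, which links membrane proteins to actin, rose by 0.61 and 0.98 (limma adjusted p = 0.0204 and 0.00227). Sdcbp, or syntenin, the PDZ partner of all syndecans, was named after its values were seen and did not pass, at 0.69 and 0.55 (limma adjusted p = 0.0564 and 0.148).

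Among ligands and receptors that use heparan sulfate, 0 of 11 rose and 5 fell in wild-type tumours (median -1.13), and 0 of 10 rose and 5 fell in tumours labelled PEA3-null (median -1.18). Vtn, the matrix protein vitronectin, fell, with log2 differences of -2.54 and -1.87 (limma adjusted p = 0.000715 and 0.0098). It read 27.3 to 37.6 in wild-type tumours and 48.0 to 106 in tumours labelled PEA3-null. All these signals lie below 150, so the size of this fall depends on the constant added before log2. Cxcl12, a chemokine of connective tissue, fell, with log2 differences of -1.94 and -1.60 (limma adjusted p = 0.000159 and 0.00139). Fgfr2, an epithelial receptor for fibroblast growth factors, fell, with log2 differences of -2.45 and -2.35 (limma adjusted p = 0.00875 and 0.018). Fgf10, one of its ligands, made by mammary mesenchyme, fell by 2.92 in wild-type tumours on chip C (limma adjusted p = 0.000653). It read 950 to 1217 in normal glands, 105 and 127 in wild-type tumours, both below 150, and 564 on the single array labelled PEA3-null. The size of this Fgf10 fall therefore also depends on the added constant. A second Fgf10 probe set, 170410_at, gave -2.12 without passing. Fn1, or fibronectin, which Sdc4 helps cells to grip, was named after its values were seen and fell, with log2 differences of -1.80 and -1.49 (limma adjusted p = 0.000181 and 0.00153). The other chip A probe sets, 100112_at and 162234_f_at of Cxcl12 and 93091_s_at of Fgfr2, fell and passed in both comparisons. The remaining probe sets, 105704_at of Cxcl12 on chip B and 135404_at of Fgfr2 on chip C, had the opposite sign without passing. Fibroblast markers fell in the same samples, at 6 of 7 in wild-type tumours and 7 of 7 in tumours labelled PEA3-null, and the part of this in the falls was not tested.

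**Figure D4:**
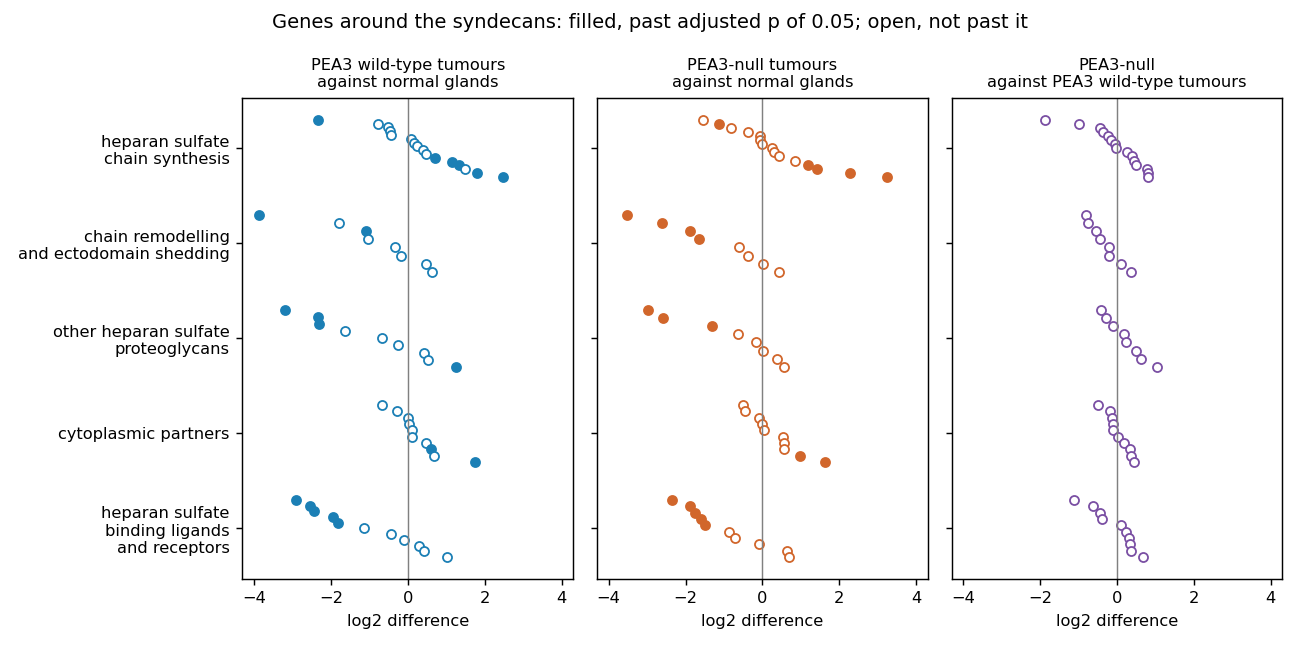
Log2 difference of each measured gene of the 5 lists in the 3 comparisons; points are genes, filled where the limma adjusted p is under 0.05 and open otherwise. Filled points lie on both sides of 0 for chain synthesis, to the left for ligands and receptors in the comparisons with normal glands, and are absent between the tumour groups.

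Between the tumour groups, none of the 51 measured genes of these lists passed (limma, 0 of 51 at an adjusted p of 0.05 and 3 of 51 at an unadjusted p of 0.05), beside 0.238% and 11.0% of all 11743 genes. The medians of the 5 lists were -0.03 for chain synthesis, -0.33 for remodelling and shedding, 0.20 for other proteoglycans, -0.04 for cytoplasmic partners and 0.17 for ligands and receptors. B4galt7, which adds the first galactose of the linker and was named after its values were seen, had the largest difference of any of these genes, -1.86 (SE 0.66, limma adjusted p = 0.317).

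The genes whose profiles were most like that of each syndecan were found by the root mean square difference between log2 profiles over the 8 arrays of the chip type, each profile taken relative to its mean in normal glands. For Sdc4 at 98590_at these were Rps18, Rpl19 and Slc22a17, at 0.11, 0.14 and 0.14. For Sdc4 at 109816_s_at, added after values were seen, they were Ncald, Chn2 and Cited4, at 0.48, 0.54 and 0.59. For Sdc3 they were Lzts1, Zdhhc7 and Fbxw8, at 0.12, 0.12 and 0.13, and for Sdc2 Sdhaf1, Mrpl4 and Vps28, at 0.07, 0.09 and 0.10. For the dim Sdc1 probe set the nearest genes, Prf1, Fut7 and Cga, were no closer than 0.30, 0.30 and 0.33. Likeness over 8 arrays in 3 groups is a description.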

How the data were processed

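Probe set intensities had been made by the authors with MAS5, per the submitters' processing notes, which give no version, and were deposited on a linear scale with a 2% trimmed mean of 1500.28 to 1501.06 on every array. Deposited instrument files (other, text without measurements) gave the scan day, lot and wash of each array. Arrays were scaled to 500 by this mean, and log2 was taken after adding 32, so the differences of dim probe sets are understated. The 198 control probe sets were left out, and a probe set was tested where 2 or more arrays of its chip type reached 150. Columns without a sample numbered 0.

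The R package limma 3.58.1 (R 4.3.3) was fitted to all 3 groups of each chip type with lmFit and eBayes, using a variance trend. Its two-sided p-values had Benjamini-Hochberg adjustment over 19214 probe sets of chips A and B, or over 28138 where chip C entered, between wild-type tumours and normal glands. The fit was tested on simulated data. Genes are named from GEO's platform annotation, where 29131 of 36701 probe sets had 1 symbol and 724 several, and 29044 were matched to RefSeq. Precision is limited by how few arrays there are.

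The members, gene lists and tests were chosen with earlier results of these data known. Named genes are all syndecan probe sets, up to 4 genes of each list with the largest difference in any comparison among those past the threshold, the 3 genes with the profile most like each syndecan, and marker genes, Etv4 and Erbb2 as checks. Promoter windows come from RefSeq build GRCm38.p6. Alternatives concerned scaling, the added constant, the filter, the variance model, array weights, blocks, chip types, the groups fitted and each sample left out.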

Additional observations from a re-analysis of the deposited data

How the results depend on the processing

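Over all alternatives run, 0 syndecan probe sets passed between the tumour groups. The fitted differences of Sdc4 at 109816_s_at from normal glands ranged over 4.69 to 5.77 in wild-type tumours and 4.67 to 5.75 in tumours labelled PEA3-null. The highest of each came from the fit in which normal gland 3 alone remained. The number of heparan sulfate genes called, 19 in each comparison with normal glands, changed by over 1.5 times in 1 setting, added after the data were seen: without normal glands 1 and 2 it was 8 for wild-type tumours and 7 for tumours labelled PEA3-null. Under the other alternatives it was 14 to 22 and 13 to 20. The signs of small differences between the tumour groups turned without any passing the test, and the cause was not tested. Leaving out each sample in turn gave -0.28 to 0.15 for Sdc4 at 109816_s_at, -0.32 to 0.10 for Sdc4 at 98590_at, -0.62 to 0.53 for Sdc3 at 98847_at and -0.52 to 1.45 for Sdc1 at 161370_f_at. Quantile normalization gave 0.0861 for Sdc4 at 109816_s_at. With the replicate block, Sdc3 at 98847_at was at -0.24 and Sdc4 at 109816_s_at at -0.15, and no syndecan call changed. In that fit 18 genes of the lists passed in each comparison with normal glands, and 3 of 19214 probe sets passed between the tumour groups. Replicate numbers did not pair the samples, since same-numbered samples deviated together with correlations of -0.11 to 0.07. The count of 37 probe sets between the tumour groups was 4 without a variance trend, 3 with array weights, 15 without a filter, 239 without sample 1 labelled PEA3-null, 3 without wild-type sample 1, 63 with chip C and 6 with the tumour arrays of chip A alone. It was 5 or 6 with only the tumour groups fitted or without normal glands 1 and 2. On chips A and B, replicates of normal glands had a smaller spread than those of tumours (median log2 SD on chip A 0.20 against 0.32 in both tumour groups). The shared estimate of the spread is therefore low for the tumours on these chips. On chip C the spread was larger in normal glands, 0.49 against 0.41 in wild-type tumours. Scan day as a random block could be fitted on chip B alone, where it gave a correlation of 0.109. Where signals lay near or below 150, as at 98847_at and 161370_f_at, the wide intervals limit what could be seen.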

Other observations

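The genes of the lists around the syndecans past the limma threshold that the naming rule left out were Extl1, Hs6st1, Glce, Mdk and Fn1. The first 4 are described here. Extl1, an exostosin-like glycosyltransferase, rose by 1.34 on the log2 scale in wild-type tumours (limma adjusted p = 0.00765) and by 1.18 in tumours labelled PEA3-null (limma adjusted p = 0.026). Hs6st1, a 6-O-sulfotransferase, rose by 0.70 in wild-type tumours (limma adjusted p = 0.03) and was at 0.26 in tumours labelled PEA3-null (limma adjusted p = 0.462). Glce, the epimerase that turns glucuronic into iduronic acid within the chain, fell by 1.14 in tumours labelled PEA3-null (limma adjusted p = 0.0219) and was at -0.77 in wild-type tumours (limma adjusted p = 0.0796). Mdk, the growth factor midkine, fell by 1.76 in tumours labelled PEA3-null (limma adjusted p = 0.0422) and was at -1.13 in wild-type tumours (limma adjusted p = 0.148).

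Markers of cell types known for particular syndecans differed from normal glands in both directions. Among 3 Schwann cell markers, Sox10 rose by 0.83 in wild-type and 0.79 in tumours labelled PEA3-null, while Mbp fell, with log2 differences of -1.02 and -0.77. Among 4 plasma cell markers, Jchain, the joining chain of secreted antibodies, rose by 1.38 in tumours labelled PEA3-null (limma adjusted p = 0.00581), and Irf4 fell in both tumour groups, with log2 differences of -2.05 and -2.39. Of 5 endothelial markers 3 fell in wild-type tumours and 4 in tumours labelled PEA3-null, among them Cdh5, with log2 differences of -4.14 and -3.24, while Pecam1 did not pass. Of 5 macrophage markers 2 and 3 fell, among them Mrc1, with -3.01 and -2.90, while Cd68 and Adgre1 did not pass. Of 3 basal and myoepithelial markers 1 fell in each, Acta2, with -2.77 and -3.26. The part of these cell types in the syndecan values was not tested.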
